A study of Caenorhabditis elegans with 15 samples.

Results

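The genes described here are 67 neuropeptide genes of Caenorhabditis elegans, out of 17118 genes with a probe set of their own on the array. They are the genes named *flp* or *nlp* with a number, together with *snet-1*, *ntc-1* and *capa-1*, where the array holds a probe set that names that gene alone. The rule leaves out *flp-11*, *flp-13*, *flp-18*, *flp-21*, *flp-24*, *nlp-8*, *nlp-14*, *nlp-22* and *nlp-24* to *nlp-34*. Of 93 genes in the reference table that the rule names, 26 had no single-gene probe set and were not analysed here, *ntc-1*, *flp-20* and *nlp-38* among them. The 67 comprise 20 *flp* genes, 45 *nlp* genes, *snet-1* and *capa-1*.

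Neuropeptide genes encode precursor proteins that neurons, and some other cells, cut into short peptides, trim and amidate, pack into dense-core vesicles and release. The peptides act mostly on G-protein-coupled receptors. The *flp* genes encode peptides related to FMRFamide, whereas *nlp* is a collective name for precursors of many unrelated peptide families. In this animal such peptides are known for tuning locomotion, egg laying, feeding, defecation and arousal.

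Total RNA came from pools of wild-type N2 hermaphrodites at 3 stages, with 5 Affymetrix arrays per stage and 15 in all, and animals were taken in batches of 20. All were raised on the bacterial strain DA837 at 20 °C and picked at 22.5 °C. L4 animals (late in the last larval stage) were taken 42 h after food was given to arrested first-stage larvae, while they moved and fed. L4-lethargus is the quiescent period at the last molt, in which movement and pharyngeal pumping stop, and these animals were found 45 to 50 h after that feeding and picked once pumping had been stopped for 30 to 40 min. The Adult group is labelled as young adults, with no age in hours in the labels used here. The 3 groups share strain, food and temperature and differ in age, so quiescence, molting, stopped feeding and age cannot be told apart. Whole animals were extracted, so a value also depends on the make-up of the RNA of all tissues. A lower value can mean fewer cells of a type, less RNA per cell or a smaller share of the total RNA. These cannot be told apart.

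Values are log2 expression values, and a difference of 1 is 2-fold. A difference was called at an adjusted p of 0.05 or less in limma (Benjamini-Hochberg, over all probe sets), and SDs are over the 5 arrays of a stage. Arrays of one stage correlated at r = 0.983 to 0.997 over all probe sets. A stage mean below 5.56 was treated as not above background. By this bound 59 of the 67 genes were above background at every stage. A set of 6 genes (*flp-23*, *flp-27*, *nlp-35*, *nlp-39*, *nlp-60* and *nlp-90*) was below it at all stages, and no single difference is given for these, although the counts over 67 genes include them. The remaining genes with a stage mean below the bound were *nlp-67*, above it in lethargus only, and *nlp-23*, below it in Adult only.

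Some arrays stood apart. L4 replicate 2 was the lowest L4 array for 32 of the 61 genes above background at some stage, by at least 0.5 for 14 of them, and no other L4 array was lowest by that margin for any gene. The mean over the 67 genes was 7.85 on that array and 8.08 to 8.30 on the other L4 arrays. Adult replicate 2 was the highest Adult array for 33 of the 61 genes and had the smallest array quality weight of all 15 arrays, 0.18. Several results named below change without one of them. Without Adult replicate 2, which enters the shared spread, the lethargus difference from L4 was called for *flp-2* (0.34, adjusted p = 0.0175), *nlp-6* (0.43, adjusted p = 0.00145) and *nlp-40* (-0.19, adjusted p = 0.0355), which were not called with it.

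**Figure D1:**
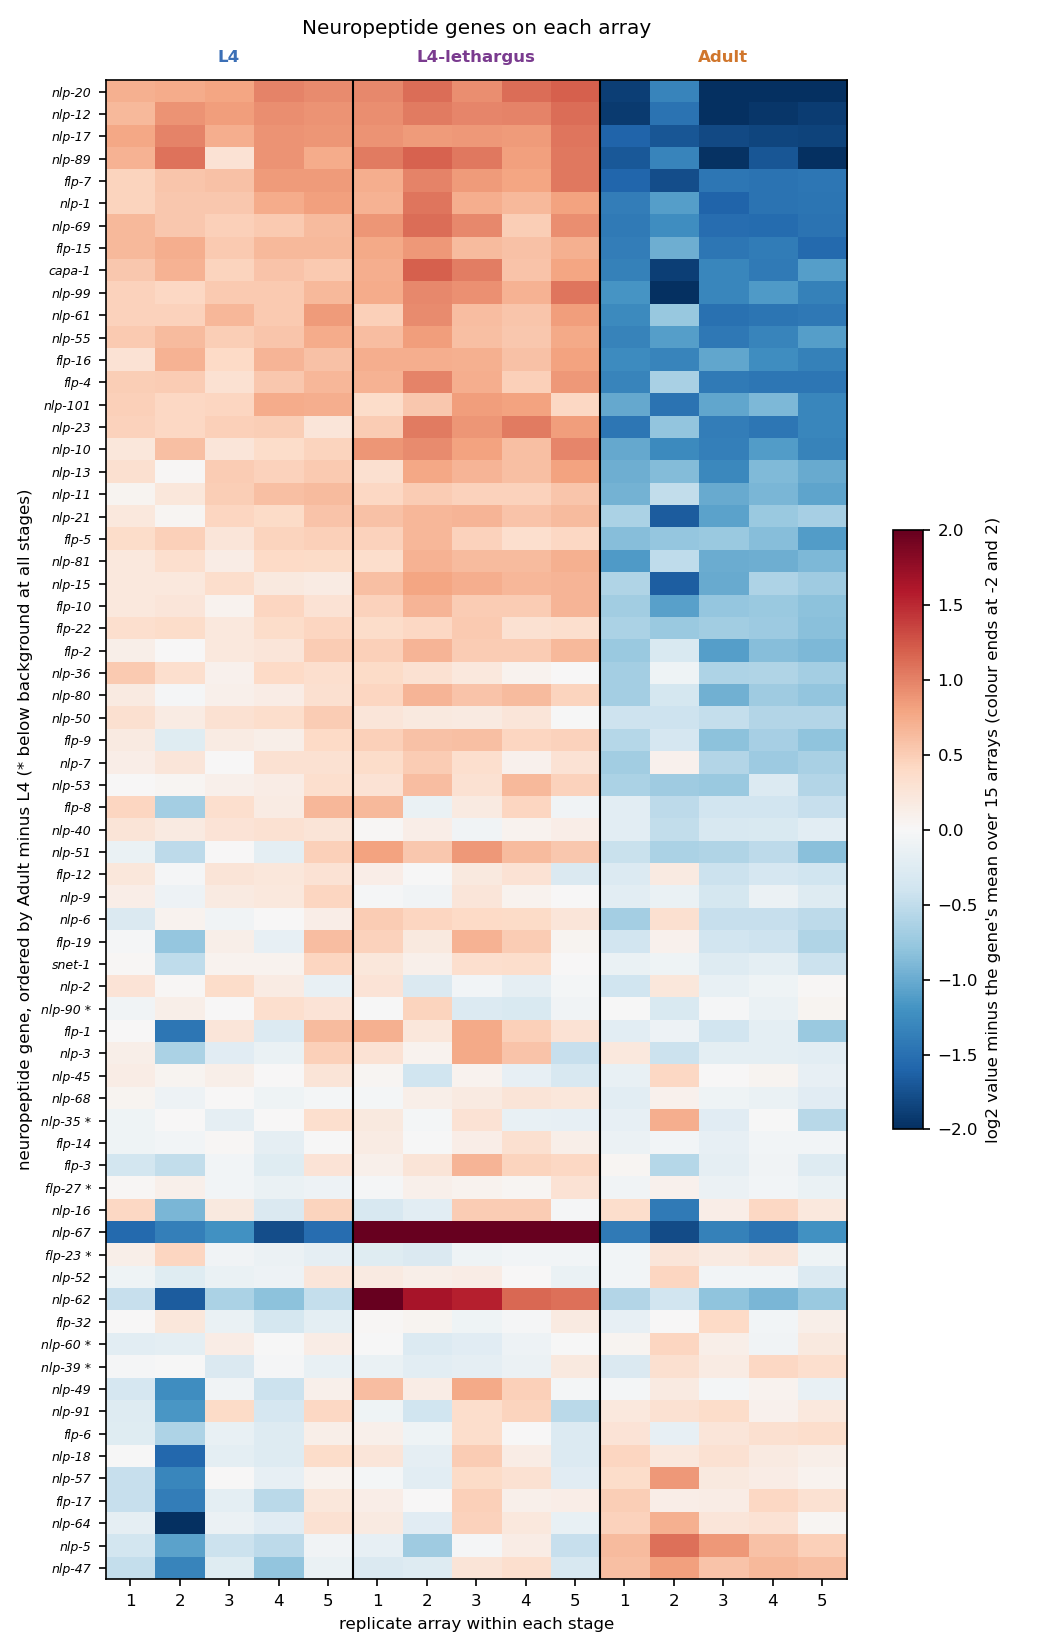
Each row is one of the 67 genes, each column one array, and the colour is the log2 value minus the gene's mean over 15 arrays, with the scale ending at -2 and 2. The genes are ordered by the difference between Adult and L4; the upper rows turn blue in all 5 Adult arrays, *nlp-67* and *nlp-62* are red in the 5 lethargus arrays, and *nlp-5* and *nlp-47* at the bottom are red in Adult.

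As a group these genes were highest in lethargus and lowest in Adult. The highest stage mean was in lethargus for 47 of the 67 genes, in Adult for 12 and in L4 for 8. Among all 17118 genes lethargus was the highest stage for 22.6%, Adult for 48.1% and L4 for 29.3%. The lowest stage was Adult for 50 of the 67 genes, L4 for 14 and lethargus for 3, against 35.0%, 35.4% and 29.7% of all genes. The mean over the 67 genes lay between 7.85 and 8.30 on the L4 arrays, between 8.33 and 8.48 on the lethargus arrays and between 7.31 and 7.49 on the Adult arrays. For the 59 genes above background at every stage these ranges were 8.31 to 8.82, 8.78 to 8.96 and 7.73 to 7.91, so Adult lay apart while L4 and lethargus overlapped, as they did for the 20 *flp* genes (8.30 to 8.73 and 8.71 to 8.81). In the F test over the 3 stages 48 of the 67 genes were called, beside 67.9% of all genes, so the share that differed between any stages was close to the background.

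The first comparison was lethargus with L4, the stage just before it. A rise in lethargus was called for 12 of the 67 genes and a fall for 0, where 16.0% of all genes were called higher and 15.6% lower. The count of rises is therefore near the background. The median difference of the 67 genes was 0.22, with a range of -0.27 to 4.42, against 0.00 for all genes, and the estimate was above 0 for 57 genes and below 0 for 10. All 5 lethargus arrays lay above all 5 L4 arrays for 10 genes and below them for 1, where 12.6% and 14.6% of all genes did so. With p-values not doubled 20 genes were called higher and 1 lower, where 3090 and 3084 of all 17118 genes were. After median-centring each array 9 were called higher and 1 lower, where 2499 and 3030 of all genes were. After scaling each array to 21 pan-neuronal genes 8 were called higher and 0 lower, where 2275 and 2649 of all genes were. The *flp* genes had 4 of 20 called higher and the *nlp* genes 8 of 45.

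Most of those rises were small, and *nlp-67* (sequence name R11.2), a precursor for which no role is stated here, stood far outside them. On the L4 arrays *nlp-67* read 4.92, 5.11, 5.27, 4.70 and 4.95, on the lethargus arrays 9.32, 9.60, 9.51, 9.27 and 9.33, and on the Adult arrays 5.06, 4.69, 5.13, 5.00 and 5.26. Every L4 and Adult value lay below the background bound and every lethargus value far above it, so the gene was measured in lethargus only. The means were 4.99 ± 0.21, 9.41 ± 0.14 and 5.03 ± 0.21 (SD, n = 5 arrays each). Lethargus was at least 14.4-fold above L4 and at least 14.4-fold above Adult (adjusted p = 2.3e-13 and adjusted p = 2.46e-13), with the dim stages set to the bound.

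*nlp-62* (F33D11.8) showed the same shape at a higher floor. Its L4 arrays read 6.84, 5.63, 6.67, 6.47 and 6.82, its lethargus arrays 9.36, 8.94, 8.85, 8.44 and 8.40, and its Adult arrays 6.71, 6.92, 6.49, 6.38 and 6.55. The lethargus arrays lay above all others, and the L4 and Adult arrays overlapped. The rise over L4 was 4.98-fold (log2 2.32, SE 0.22, adjusted p = 6.55e-07) and the excess over Adult 4.56-fold (log2 2.19, SE 0.22, adjusted p = 5.58e-07). The difference between Adult and L4 was 0.13, with a 95% interval of -0.34 to 0.59.

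*nlp-51* and *nlp-49* followed at a smaller size. *nlp-51* read 9.28, 8.89, 9.42, 9.22 and 9.89 in L4, 10.22, 9.95, 10.27, 10.04 and 9.94 in lethargus, and 8.96, 8.78, 8.80, 8.89 and 8.58 in Adult, from a probe set that shares probes with other transcripts. No lethargus array overlapped L4 or Adult, and the lethargus mean was 1.67-fold above L4 (log2 0.74, SE 0.14, adjusted p = 0.00125). *nlp-49*, whose peptides raise locomotor activity through the receptor SEB-3, read 6.96, 6.06, 7.22, 6.87 and 7.39 in L4 and 7.91, 7.45, 8.05, 7.77 and 7.25 in lethargus. Those arrays overlapped, and the rise was 1.72-fold (log2 0.79, SE 0.21, adjusted p = 0.0127). On the Adult arrays *nlp-49* read 7.25, 7.47, 7.26, 7.37 and 7.14, overlapping both other stages, and neither difference from Adult was called.

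The other rises over L4 were *flp-3* (0.55), *nlp-10* (0.46), *nlp-23* (0.44), *nlp-80* (0.40), *flp-9* (0.39), *flp-10* (0.33), *nlp-53* (0.33) and *flp-17* (0.64), all in log2. *flp-17*, a peptide gene of the BAG sensory neurons that inhibits egg laying through the receptor EGL-6, was the least secure of them. It read 6.86, 5.94, 7.13, 6.79 and 7.55 in L4, and the lethargus arrays (7.45, 7.33, 7.80, 7.43 and 7.46) overlapped them. Its adjusted p of 0.0487 was lost in 13 of 15 fits that left out 1 array, and without L4 replicate 2 the difference was 0.41. The calls of *nlp-53*, *flp-9*, *nlp-23* and *flp-10* were lost in 9, 4, 4 and 2 of those fits. The calls of *nlp-67*, *nlp-62*, *nlp-51*, *nlp-49*, *flp-3*, *nlp-10* and *nlp-80* were kept in all 15. Under pan-neuronal scaling the calls of *nlp-80* (0.37), *flp-9* (0.36), *nlp-23* (0.41), *nlp-53* (0.30) and *flp-17* (0.61) were lost. After median-centring those of *flp-10* (0.28), *nlp-53* (0.29) and *flp-17* (0.60) were lost.

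**Figure D2:**
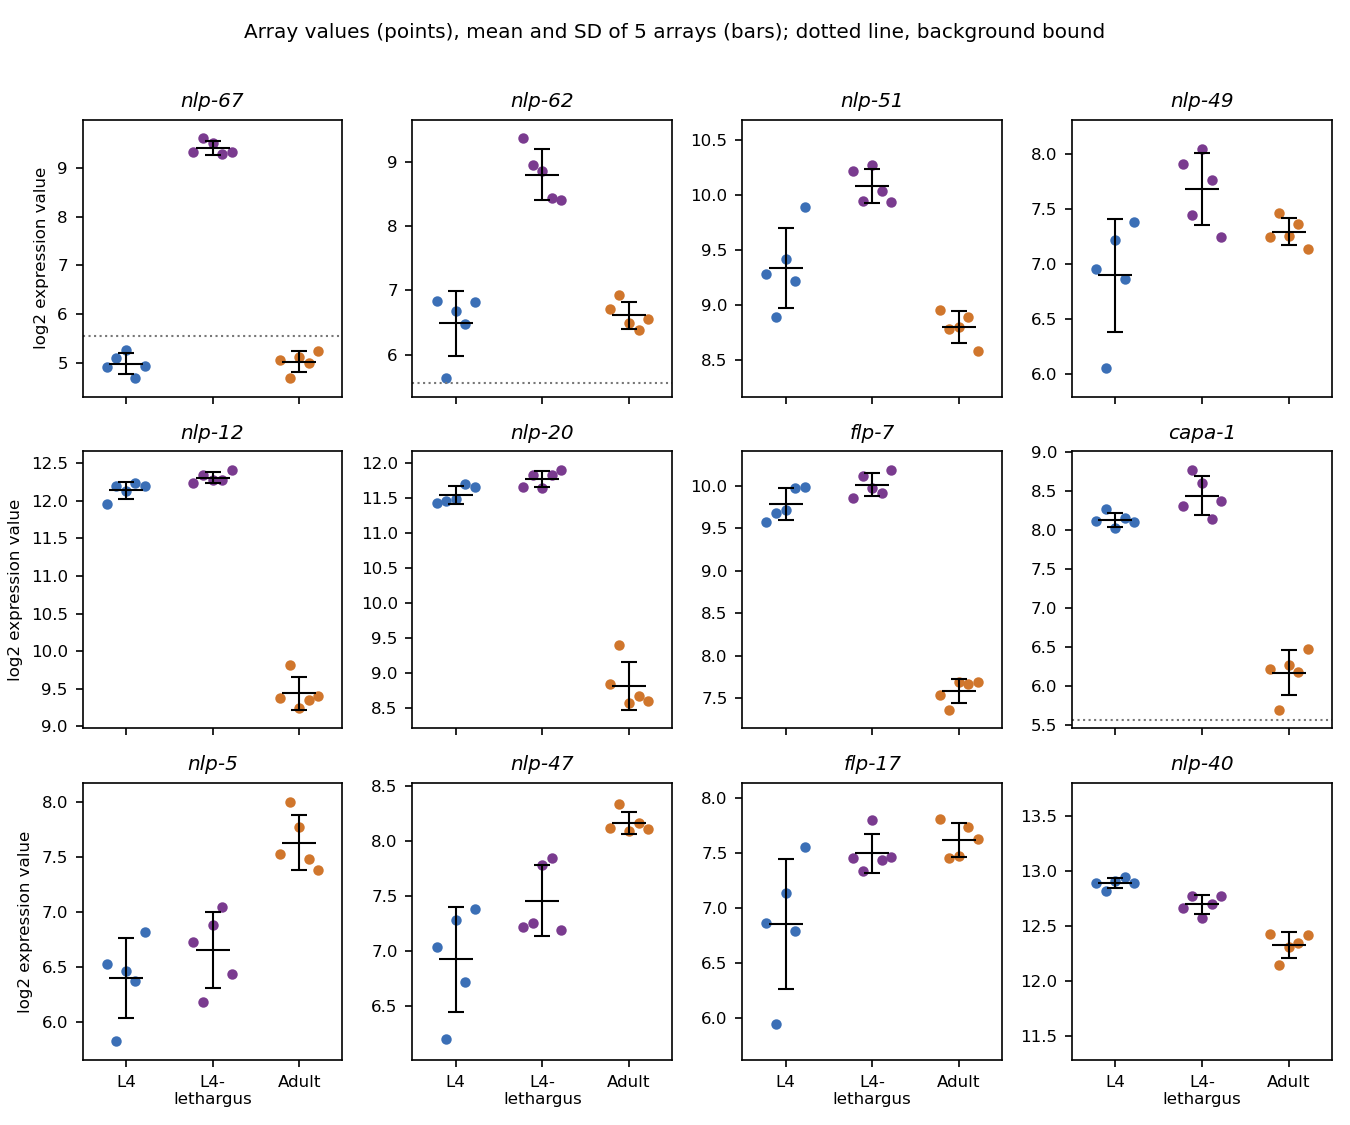
Log2 expression value (vertical axis, a scale of its own in each panel) of 12 genes by stage, with 1 point per array, the mean and SD of 5 arrays, and the background bound of 5.56 as a dotted line where it is in range. *nlp-67* and *nlp-62* peak in lethargus, *nlp-12*, *nlp-20*, *flp-7* and *capa-1* are low on all 5 Adult arrays, and *nlp-5* and *nlp-47* are high there.

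The second comparison was Adult with L4, the change over the whole interval. Adult was lower for 37 of the 67 genes, where 28.7% of all genes were called lower, and higher for 5, where 30.8% were called higher. The median difference was -0.56, against 0.08 for all genes. All Adult arrays lay below all L4 arrays for 33 genes and above them for 3, where 24.3% and 24.8% of all genes did so. A fall of at least 1 in log2 was called in 25 genes, and in 2322 of all 17118 genes. One of at least 2 was called in 7, a size not counted over all genes. The balance of the calls moved with scaling. After median-centring each array 33 genes were lower and 11 higher. After scaling each array to 21 pan-neuronal genes 31 were lower and 18 higher. The median of all genes shifted from 0.08 to 0.29 and 0.44, and that of the 67 genes from -0.56 to -0.35 and -0.19. Calls over all 17118 genes moved as well. They were 4912 lower and 5274 higher before scaling, 3864 and 8440 after median-centring, and 3134 and 10154 after pan-neuronal scaling. Among the 59 genes above background at every stage 36 were lower and 5 higher, 32 and 9 after median-centring, and 30 and 13 after pan-neuronal scaling, where 34.9% of all genes so measured were called in each direction in the unscaled fit.

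The largest falls were in *nlp-20* and *nlp-12*. *nlp-12*, which encodes cholecystokinin-like peptides of the stretch-sensing DVA neuron and adjusts locomotion, read 11.95, 12.20, 12.13, 12.23 and 12.19 in L4, 12.23, 12.34, 12.27, 12.28 and 12.41 in lethargus, and 9.38, 9.82, 9.25, 9.35 and 9.40 in Adult. The Adult arrays lay apart from the rest by over 2 log2 units, and Adult was 6.50-fold below L4 (log2 -2.70, SE 0.10, adjusted p = 2.28e-12). *nlp-20* read 11.42, 11.45, 11.49, 11.70 and 11.65 in L4, 11.66, 11.82, 11.64, 11.82 and 11.90 in lethargus, and 8.83, 9.39, 8.56, 8.66 and 8.60 in Adult. It was 6.66-fold lower in Adult than in L4 (log2 -2.74, SE 0.13, adjusted p = 6.66e-11). For both genes the L4 and lethargus arrays overlapped, and the lethargus difference from L4 (0.17 and 0.22) was not called. Both were read from shared-probe probe sets.

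Other falls of over 1 in log2 covered sensory and metabolic peptides as well as precursors of unknown role. *flp-7*, a tachykinin-like peptide gene that controls fat use in the intestine, read 9.58, 9.68, 9.72, 9.98 and 9.99 in L4 and 7.54, 7.36, 7.69, 7.66 and 7.69 in Adult, with no overlap. That was a 4.60-fold fall (log2 -2.20, SE 0.10, adjusted p = 3.71e-11). *nlp-17* was 6.12-fold lower (adjusted p = 3.17e-13) and *nlp-89* 5.74-fold lower (adjusted p = 1.1e-09). *nlp-1*, which the olfactory neuron AWC uses to signal to interneurons, was 4.06-fold lower, at 8.93 ± 0.15 in L4 and 6.90 ± 0.19 in Adult (SD, n = 5 each, adjusted p = 2.03e-10). *capa-1*, the homologue of neuromedin U, was 3.91-fold lower, at 8.13 ± 0.09 in L4 and 6.16 ± 0.29 in Adult (SD, n = 5 each, adjusted p = 4.53e-09).

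The genes with falls of 1 to 2 in log2 were *flp-4*, *flp-5*, *flp-10*, *flp-15*, *flp-16*, *flp-22*, *nlp-10*, *nlp-11*, *nlp-13*, *nlp-15*, *nlp-21*, *nlp-23*, *nlp-55*, *nlp-61*, *nlp-81*, *nlp-99*, *nlp-101* and *capa-1*, and *nlp-69* fell by 2.01 on the log2 scale. *nlp-23* passed from above background (6.69 ± 0.10 in L4) to below it (4.99 ± 0.28 in Adult, SD, n = 5 each), at least 2.18-fold. *flp-15*, at 11.83 ± 0.07 in L4, was 4.00-fold lower in Adult (9.83 ± 0.22, SD, n = 5 each), and its 2 other probe sets gave -2.10 and -2.12 in log2. All 3 of these probe sets share probes with other transcripts. Among the smaller falls *flp-8* was called at an adjusted p of 0.0478, a call that was lost in 12 of 15 fits without 1 array and that its other probe set (-0.18) did not share. The fall of *flp-12* (-0.44) was -0.23 after median-centring and -0.07 after pan-neuronal scaling and was not called in either.

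A rise from L4 to Adult was called for 5 genes. *nlp-47*, the precursor of a peptide related to gonadotropin-releasing and adipokinetic hormones, read 7.04, 6.20, 7.28, 6.72 and 7.38 in L4, 7.22, 7.26, 7.78, 7.85 and 7.19 in lethargus and 8.12, 8.34, 8.09, 8.16 and 8.11 in Adult. *nlp-5*, which has been grouped with allatostatin-like peptides, read 6.53, 5.83, 6.46, 6.37 and 6.82 in L4, 6.73, 6.18, 6.88, 7.05 and 6.44 in lethargus and 7.53, 8.0, 7.77, 7.48 and 7.38 in Adult. For both genes the Adult arrays lay above all others while L4 and lethargus overlapped. Adult was 2.37-fold above L4 for *nlp-47* (log2 1.24, SE 0.19, adjusted p = 5.6e-05) and 2.34-fold for *nlp-5* (log2 1.23, SE 0.19, adjusted p = 4.28e-05).

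The other rises were *flp-17* (0.76), *nlp-57* (0.70) and *flp-6* (0.44). Without L4 replicate 2, the low array, 3 genes in place of 5 were called higher, the differences of *nlp-57* and *flp-6* were 0.47 and 0.34, and neither was called. *nlp-57* also lost its call without Adult replicate 2 (0.56). *flp-17* kept its call in all 15 fits without 1 array, with 0.54 as its value without L4 replicate 2.

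**Figure D3:**
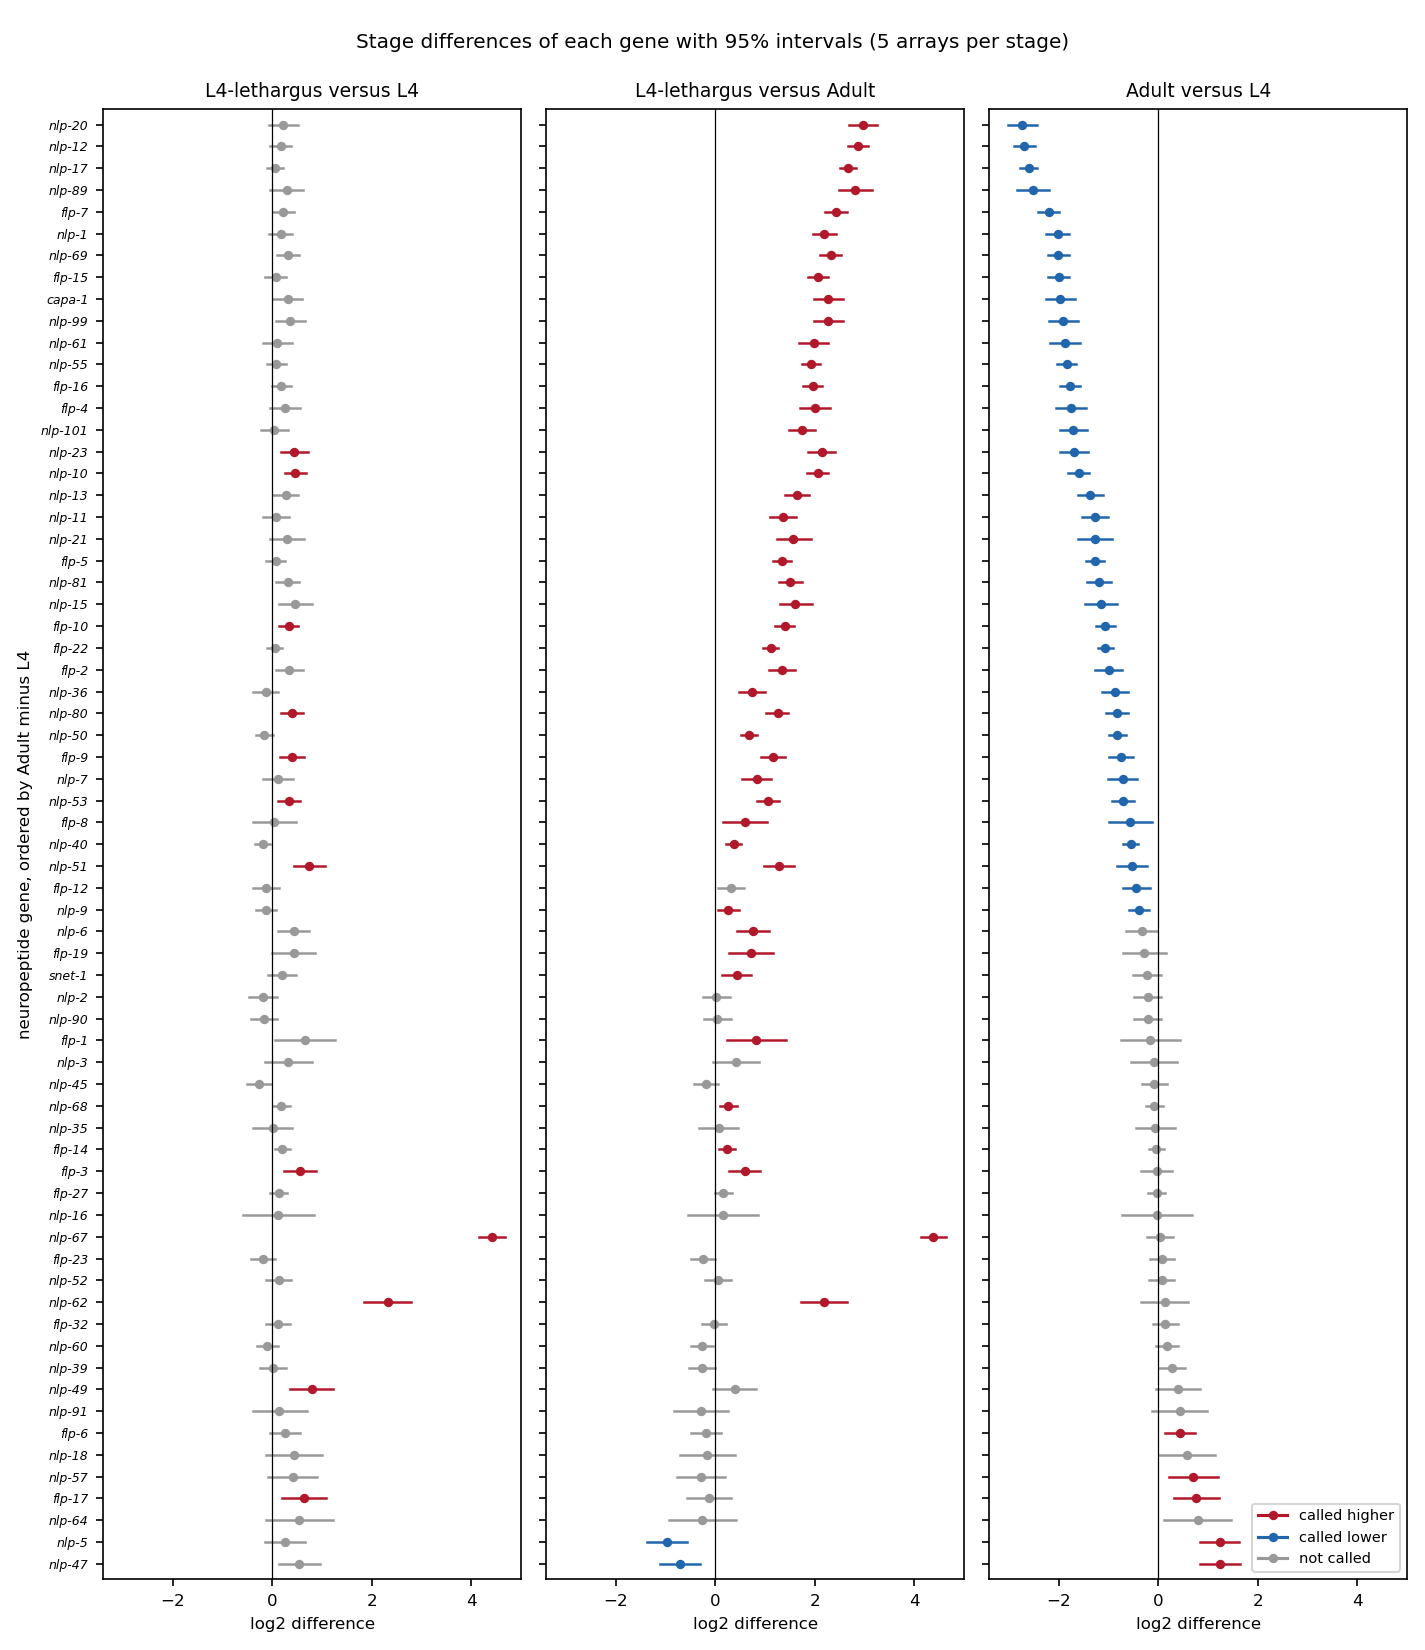
Log2 difference of each of the 67 genes (points) with its 95% interval from limma (bars) in 3 comparisons, coloured by call; the 6 genes below background at all stages are drawn but not read. Calls to the left of 0 fill the upper part of the Adult panel (37 genes), and *nlp-67* and *nlp-62* stand apart in both lethargus panels.

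The third comparison, lethargus with Adult, uses the same Adult arrays as the second and the same lethargus arrays as the first, so its values are set beside theirs and not counted as separate evidence. Lethargus was higher for 45 of the 67 genes, where 26.2% of all genes were called higher, and lower for 2, where 31.0% were called lower. The median difference was 0.82, against -0.08 for all genes. A called excess was at least 1 in log2 for 32 genes, and for 2014 of all 17118 genes. It was at least 2 for 15, a size not counted over all genes. Arrays did not overlap in 41 genes that were higher and 2 that were lower, where 22.7% and 26.5% of all genes did so. After median-centring the counts were 36 higher and 7 lower, with the median of all genes at -0.34. After pan-neuronal scaling they were 34 higher and 10 lower, with that median at -0.48. Over all 17118 genes these settings called 3250 higher and 9184 lower, and 2631 higher and 10519 lower. The median of the 67 genes was 0.57 and 0.42 under these scalings. Among the 59 genes above background at every stage 43 were higher and 2 lower, where 31.8% and 37.0% of all genes so measured were called, and the scaled counts were 34 and 4, and 32 and 6.

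Besides *nlp-67*, the largest excesses over Adult were *nlp-20* (7.79-fold), *nlp-12* (7.29-fold), *nlp-89* (7.01-fold), *nlp-17* (6.37-fold) and *flp-7* (5.38-fold). For each of these no lethargus array overlapped an Adult array. *nlp-5* was 1.97-fold lower in lethargus than in Adult (log2 -0.98, SE 0.19, adjusted p = 0.000478) and *nlp-47* 1.63-fold lower (log2 -0.71, SE 0.19, adjusted p = 0.00917). Without lethargus replicate 1 and Adult replicate 2 together the *nlp-47* difference was -0.60 and not called. *snet-1*, a peptide gene that restrains pheromone-dependent olfactory plasticity, was 0.43 higher in log2 in lethargus than in Adult (SE 0.14, adjusted p = 0.0232). This call was lost in 3 of 15 fits without 1 array, after median-centring (0.17) and after pan-neuronal scaling (0.03), and its difference between Adult and L4 was -0.23, with a 95% interval of -0.52 to 0.05.

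Because lethargus lies in time between the other stages, the lethargus mean was also set against the midpoint of the L4 and Adult means. It was above the midpoint for 41 of the 67 genes, where 18.8% of all genes were called higher, and below it for 0, where 23.6% were called lower. The median distance was 0.59, against -0.07 for all genes. Of the 59 genes above background at every stage 39 were above the midpoint and 0 below, where 22.4% and 29.0% of all genes so measured were called. After median-centring the counts over the 67 genes were 35 and 4, with the median of all genes at -0.21. After pan-neuronal scaling they were 33 and 5, with that median at -0.28. Over all 17118 genes these settings called 2487 above the midpoint and 7132 below it, and 2157 above and 8411 below. Only 9 genes had every lethargus array above every L4 and every Adult array, where 6.6% of all genes did so, and 0 had every lethargus array below, where 3.84% did so. These were *flp-9*, *flp-10*, *nlp-15*, *nlp-23*, *nlp-51*, *nlp-62*, *nlp-67*, *nlp-80* and *nlp-99*. The other probe set of *nlp-99* did not share this, with means of 8.88 in L4 and 8.64 in lethargus (log2 -0.25, not called). The other genes above the midpoint, such as *nlp-20* (1.59), *nlp-89* (1.55), *nlp-12* (1.52) and *nlp-17* (1.36), had lethargus arrays that overlapped those of L4, except *nlp-6*, whose lethargus arrays lay above L4 but overlapped Adult.

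By known role, the peptides of the egg-laying circuit did not move as a block. Of 4 measured, *flp-10* and *flp-17* were called higher in lethargus than in L4, where 16.0% of all genes were. The *flp-17* call was lost in 13 of 15 fits without 1 array, and the *flp-10* call was lost after median-centring (0.28). *nlp-3* and *nlp-7* had differences of 0.32 and 0.11 that were not called. From L4 to Adult *flp-10* fell from 10.44 ± 0.13 to 9.38 ± 0.15 and *nlp-7* from 9.58 ± 0.13 to 8.87 ± 0.34, whereas *flp-17* rose from 6.85 ± 0.59 to 7.62 ± 0.16 (SD, n = 5 each). Among all genes 28.7% were called lower in that comparison and 30.8% higher. *nlp-3*, which the HSN neurons use to stimulate egg laying, read 9.14, 8.40, 8.80, 8.89 and 9.51 in L4, 9.32, 9.09, 9.78, 9.60 and 8.57 in lethargus and 9.23, 8.60, 8.83, 8.83 and 8.81 in Adult. All its stages overlapped, and its difference between lethargus and Adult was 0.41 with a 95% interval of -0.05 to 0.87.

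Peptides of locomotion and arousal were higher in lethargus than in Adult in 5 of 6 measured genes, where 26.2% of all genes were called higher. After median-centring or pan-neuronal scaling *flp-1* (0.57 and 0.42), *nlp-9* (0.01 and -0.13) and *flp-14* (-0.02 and -0.16) were not called, which leaves *flp-2* and *nlp-12*. *flp-2*, whose peptides promote movement and arousal, was 8.31 ± 0.09 in lethargus, 7.97 ± 0.19 in L4 and 6.97 ± 0.30 in Adult (SD, n = 5 each). That put lethargus 2.54-fold above Adult (adjusted p = 2.87e-07), and the difference of 0.34 from L4 was not called. *flp-1*, made in head interneurons and needed for normal sinusoidal movement, read 9.92, 8.47, 10.15, 9.64 and 10.54 in L4, 10.62, 10.13, 10.67, 10.39 and 10.19 in lethargus and 9.70, 9.80, 9.52, 9.72 and 9.16 in Adult. Its lethargus arrays lay above all Adult arrays (1.77-fold, adjusted p = 0.0351), a call lost in 5 of 15 fits without 1 array. *nlp-9* had a difference of 0.26 between lethargus and Adult with an adjusted p of 0.0484, which was lost in 11 of those fits. That value is from a shared-probe set. The other probe set of *nlp-9*, without shared probes, gave 0.45 (adjusted p = 0.000116). *flp-14*, a further gene of that list, was 0.24 higher in log2 in lethargus than in Adult with arrays that did not overlap, before the turn in sign under scaling given above.

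From L4 to Adult, 3 of these 6 fell (*flp-2*, *nlp-12* and *nlp-9*) and 0 rose, where 28.7% of all genes were called lower. The fall of *nlp-9* was not called after median-centring (-0.18) or pan-neuronal scaling (-0.02). Under these *nlp-49* was called higher (0.61 and 0.76), as was *flp-14* under the latter (0.33). Without such scaling the other probe set of *nlp-9* fell by more (-0.70, adjusted p = 7.71e-07). The 3 measured peptides that act in turning during male mating, *flp-8*, *flp-10* and *flp-12*, were all called lower in Adult than in L4, in hermaphrodites, but the calls of *flp-8* and *flp-12* were lost under the settings given above and only that of *flp-10* was not. *nlp-40* is released by the intestine and triggers the expulsion step of defecation. It had an L4 mean of 12.89 ± 0.05, a lethargus mean of 12.70 ± 0.08 and an Adult mean of 12.33 ± 0.12 (SD, n = 5 each), and its stages did not overlap. The fall to Adult was 1.48-fold (adjusted p = 7.49e-06), or -0.19 in log2 and not called after pan-neuronal scaling, and the lethargus difference from L4, -0.19, was not called. Under pan-neuronal scaling its lethargus difference from Adult turned from 0.37 to -0.03.

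Among lists sorted by sequence, the 6 measured allatostatin-like and buccalin-like precursors had 0 calls between lethargus and L4. Among all genes 16.0% were called higher and 15.6% lower there, and a list this small cannot be set apart from such shares. The other probe set of *nlp-9*, without shared probes, was called lower (-0.25, adjusted p = 0.0301). From L4 to Adult, for this and the lists that follow, 28.7% of all genes were called lower and 30.8% higher. Within that list *nlp-1*, *nlp-7*, *nlp-9* and *nlp-13* fell from L4 to Adult and *nlp-5* rose, and after pan-neuronal scaling the falls of *nlp-7* (-0.35) and *nlp-9* (-0.02) were not called. Of the 2 measured RPamide precursors *nlp-23* was lower in Adult. *nlp-2*, already close to the background bound in L4 (6.16 ± 0.20, SD, n = 5), was at -0.21 and not called. Of the 2 measured orcokinin-like precursors, *nlp-15* fell from L4 to Adult (log2 -1.15, adjusted p = 9.77e-06) and *nlp-3* did not pass. The 5 measured homologues of hormone peptides of other animals held 2 falls (*nlp-12* and *capa-1*) and 1 rise (*nlp-47*).

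The machinery that makes these peptides showed the fall in Adult as well. Of 11 measured processing genes 10 were lower in Adult than in L4 and 1 was higher, with a median of -1.01, where 28.7% of all genes were lower and 30.8% higher. *egl-3*, the proprotein convertase that cuts most precursors, was 11.16 ± 0.11 in L4 and 10.05 ± 0.18 in Adult (SD, n = 5 each, adjusted p = 4.64e-08). *egl-21*, the carboxypeptidase that trims the cut ends, fell by 1.37 on the log2 scale, and *sbt-1*, the chaperone of the convertase, by 1.04. The amidating enzymes *pghm-1* and *pgal-1* fell by 1.01 and 1.11, and *cpd-2*, a carboxypeptidase, was the one that rose, by 0.65.

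From L4 to lethargus no processing gene rose and 3 fell, *cpd-1* (-1.69), *pamn-1* (-0.80) and *bli-4* (-0.44). Among all genes 16.0% were called higher and 15.6% lower there, and a list this small cannot be set apart from such shares. *bli-4*, a convertase, is known for processing cuticle collagens. For *egl-3*, *egl-21* and *sbt-1* the difference between lethargus and L4 was 0.07, -0.06 and 0.16 and not called. Of 13 measured genes of dense-core vesicle biogenesis and release 6 were lower in Adult and 2 higher, with a median of -0.28, a lower share nearer to that of all genes. The vesicle membrane protein gene *ida-1* went furthest, from 9.49 ± 0.12 in L4 to 7.94 ± 0.22 in Adult (SD, n = 5 each, adjusted p = 6.56e-09), and *eipr-1* rose by 1.21 on the log2 scale. The other gene called higher, *unc-31*, was below background at all stages, as was *vps-50*.

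**Figure D4:**
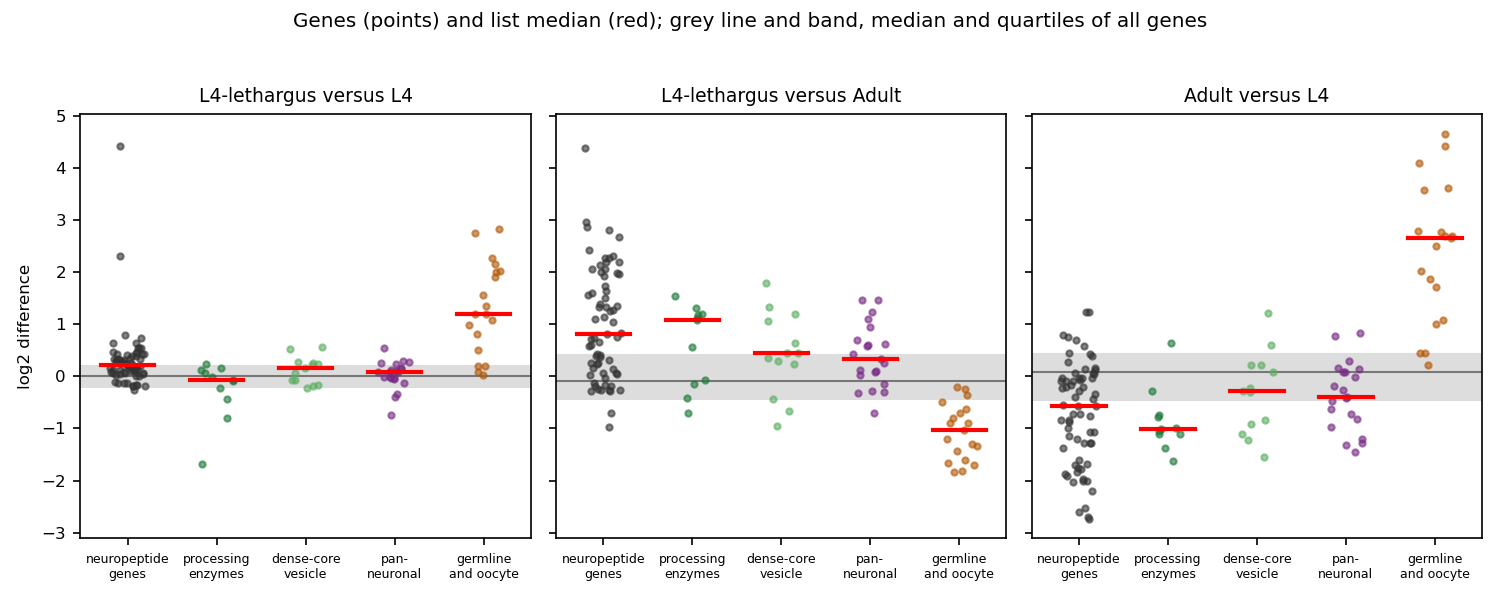
Log2 difference of each gene (points) in 5 lists, with the list median (red) and the median and quartiles of all 17118 genes (grey), in 3 comparisons. In Adult versus L4 the medians are -0.56 for the neuropeptide genes, -1.01 for processing enzymes, -0.28 for dense-core vesicle genes, -0.40 for pan-neuronal genes and 2.65 for germline and oocyte genes.

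Markers of neurons and of other tissues moved over the same interval. Of 21 pan-neuronal genes 11 were lower in Adult than in L4 and 3 higher, with a median of -0.40, and their mean level lay between 8.50 and 8.67 on the L4 arrays and between 8.11 and 8.31 on the Adult arrays. From L4 to lethargus 2 rose and 0 fell, where 16.0% of all genes were called higher and 15.6% lower. The median of the pan-neuronal genes there was 0.08, and their mean on the lethargus arrays was 8.60 to 8.68. Of the 21, *rgef-1* was below background at every stage and *maco-1* in L4 and lethargus. Of 19 germline and oocyte genes 18 were higher in Adult than in L4, with a median of 2.65 and a mean level of 8.96 to 9.88 in L4, 10.37 to 10.88 in lethargus and 11.73 to 11.77 in Adult, and none of these genes was below background at any stage. In the same comparison 9 of 12 intestinal genes were lower and 0 higher, and 8 of 14 epidermal genes were lower and 1 higher. Of 9 genes of the gonadal sheath and spermatheca 5 were lower and 1 higher, of 13 of the pharynx 1 and 2, and of 4 of the coelomocytes 1 and 1, beside 28.7% and 30.8% of all genes. The part of these shifts in the neuropeptide differences was not tested beyond the scaling to pan-neuronal genes given above.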

How the data were processed

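The authors deposited log2 values that they had made with RMA, per the submitters' processing notes, and a version is not given there. RMA corrects background, equalizes the distributions of the arrays at the level of single probes and summarises the probes of each set. A change in total RNA therefore cannot be read, and differences of dim genes are compressed. The medians of the deposited arrays still differed between stages. They averaged 7.47 in L4 (SD 0.05), 7.51 in lethargus (SD 0.02) and 7.26 in Adult (SD 0.04), so Adult arrays lay lower before any further scaling.

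Control probe sets (77 of 22625) were left out. Of the 22548 tested, 20766 named 1 gene. A gene was read from its single-gene probe set with the highest mean over 15 arrays. Of the 67 genes, 9 had more than 1 probe set and 17 were read from sets sharing probes with other transcripts. limma 3.58.1 in R 4.3.3 fitted a mean per stage over all 15 arrays. p-values were multiplied by 2, as the series design states, then Benjamini-Hochberg adjusted over the 22548 probe sets, and the series' R/maanova permutation test was not run. Adjusted p-values are from limma, except those of the permutation tests on neighbouring genes in the closing section. Nothing says that the pools were grown as separate cultures, so a p-value reflects only how these pools varied. The number of arrays limits the precision.

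The background bound, the 95th percentile over 32 control probe sets that target other organisms, was chosen after the data were seen. Where only the dimmer stage lies below it, the fold is a lower bound. Genes, lists and comparisons were chosen with earlier results of these data known. The rule for named genes took, per comparison, the 6 largest called rises and falls, the 6 highest and 6 lowest means, genes with a known role, and up to 3 called genes per list. Other genes were named after their values were seen. Alternatives were other scalings, filters, priors, weights, probe set rules, a replicate block and leaving out each array. Scaling to the pan-neuronal genes and leaving out 2 arrays were added after the data were seen. The 2 arrays were lethargus replicate 1 and Adult replicate 2, so the low array L4 replicate 2 stayed in that fit. The procedure was tested on simulated data. Figures were drawn with matplotlib 3.10.9.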

Additional observations from a re-analysis of the deposited data

Results flagged for a closer look

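Among the genes named by rule, 99 groups of 5 arrays (a gene at a stage above background) were searched for a single array far from the other 4, by Dixon's criterion. Of these 10 held one, and chance flags about 1 in 20 groups. Adult replicate 2 accounted for 7. It was higher than the other Adult arrays for *flp-12* (8.25, others 7.64 to 7.80), *flp-15* (10.21, others 9.64 to 9.80), *nlp-6* (8.93, others 7.93 to 8.14), *nlp-7* (9.47, others 8.65 to 8.79), *nlp-12* (9.82, others 9.25 to 9.40) and *nlp-47* (8.34, others 8.09 to 8.16), and lower for *flp-6* (7.17, others 7.58 to 7.69). The remaining arrays were L4 replicate 2 for *flp-12* (8.04, others 8.29 to 8.36), lethargus replicate 3 for *flp-17* (7.80, others 7.33 to 7.46) and lethargus replicate 5 for *nlp-17* (11.04, others 10.82 to 10.88).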

How the results depend on the processing

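Most calls of each comparison lay on the same side of 0 under every alternative run, and their number moved most for lethargus against L4 and for the smaller side of each split. Lethargus above L4 was called for 20 genes (1 lower) with p-values not doubled, and for 19 (2 lower) with array weights. It was called for 2 with a log2 difference of at least 1. Over all 17118 genes these settings called 3090, 3493 and 1024 higher, and 3084, 3391 and 833 lower. The 0 genes lower became 1 with median-centring, a trended robust prior, the probe set of largest spread, no shared-probe sets, or without lethargus replicate 1 and Adult replicate 2 (the 2 arrays below). Lethargus below Adult was called for 7 genes (median-centring), 4 (quantile normalization again), 10 (pan-neuronal scaling), 0 (log2 of at least 1) and 1 (without the 2 arrays), in place of 2. Adult above L4 was called for 11, 8, 18 and 2 genes in the first 4 of these settings, in place of 5. Lethargus below the midpoint was called for 4, 2 and 5 genes under the 3 scalings and 1 with array weights, in place of 0. Of the 41 genes above the midpoint 20 lay at least 1 above it, as did 1155 of all 17118 genes. Calls over all genes in these directions rose too under median-centring and pan-neuronal scaling, as given above. Leaving out the 2 arrays also gave 18 genes above L4, beside 3285 of all 17118 genes. Under pan-neuronal scaling the lethargus difference from Adult turned to -0.16 for *flp-14*, -0.14 for *nlp-68*, -0.13 for *nlp-9*, -0.03 for *nlp-40* and -0.01 for *nlp-49*, and the Adult difference from L4 to 0.13 for *snet-1* and 0.15 for *nlp-2*. That of *flp-14* against Adult was also -0.02 (median-centring) and -0.01 (quantile normalization again). The uncalled Adult difference of *nlp-62* from L4 was -0.04 with array weights and ran from -0.09 (without L4 replicate 2) to 0.22 when each array was left out. The cause was not tested.

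Leaving out each array in turn gave 8 to 17 genes higher and 0 to 1 lower for lethargus against L4, 39 to 46 and 2 to 3 against Adult, and 36 to 42 and 0 to 1 against the midpoint. It gave 3 to 7 higher and 36 to 38 lower for Adult against L4, and 43 to 49 in the F test. Of the 12 called rises over L4, 7 were kept in all 15 such fits. Same-numbered arrays did not deviate together (15 pairs, correlations of -0.24 to 0.13, 2 over 0.1), and only 4 of 30 best matches had the same number. These values cannot show whether same-numbered pools were collected or processed together. With a replicate block 13 genes rose and 0 fell against L4, 44 and 2 against Adult, 38 and 0 against the midpoint, and 4 rose and 37 fell from L4 to Adult. Over all 17118 genes the block fit called 2561 higher and 2451 lower against L4, and 4366 and 5157 against Adult. It called 3085 and 3780 against the midpoint, and 5109 higher and 4764 lower from L4 to Adult. All-gene counts for the fits without 1 array are not given here, so those ranges have no background beside them.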

Other observations

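Neprilysins, membrane peptidases that break down released peptides, also changed between the stages. Of 22 measured *nep* genes 15 were lower in Adult than in L4 and 3 were higher, with a median of -0.73, and *nep-24* (a rise) and *nep-16* (a fall) were below background at all stages. Among all genes 28.7% were lower and 30.8% higher. *nep-14* and *nep-4* rose at least 14.2-fold and at least 3.66-fold, from below background in L4 to 9.39 ± 0.39 and 7.44 ± 0.12 in Adult (SD, n = 5 each), and both had also risen by lethargus, where *nep-14* was 9.25 ± 0.84 and *nep-4* 6.68 ± 0.14 (SD, n = 5 each). *nep-23* went furthest down, by -2.91 in log2 (adjusted p = 3.96e-09 by limma). *nep-1* fell from 9.70 ± 0.45 in L4 to 8.09 ± 0.70 in lethargus (SD, n = 5 each, adjusted p = 0.000424 by limma). *nep-2*, which is known to limit signalling by the *snet-1* peptide, was 7.14 ± 0.12, 6.87 ± 0.03 and 6.51 ± 0.17 in L4, lethargus and Adult (SD, n = 5 each), and the lethargus fall was called at an adjusted p of 0.0487 by limma.

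Some of the 67 genes are next to each other in the order of protein-coding genes in the RefSeq table of assembly WBcel235. In 3 such pairs with both genes above background at some stage, the change from L4 to Adult differed between the neighbours. *nlp-13* fell by 1.37 on the log2 scale and *nlp-9* by 0.39, a difference of 0.98 between them (exact permutation test over arrays, two-sided, p = 0.00794, Benjamini-Hochberg p = 0.0119 over the 3 pairs). The other probe set of *nlp-9* fell by more (log2 -0.70), and the pair was not tested with it. *nlp-23*, below background in Adult so that its size is a lower bound, fell by 1.69 and *nlp-2* by 0.21 (exact permutation p = 0.00794, adjusted 0.0119). *flp-2* fell by 1.00 and *flp-3* by 0.03 (exact permutation p = 0.0159, adjusted 0.0159). The smallest p that 5 arrays against 5 allow is 0.00794. The pairs were chosen after the data were seen.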
